A study of Capra hircus with 90 samples.

Results

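OLIG1 and OLIG2 are the genes described here, 2 of the 25144 genes in the deposited count table of goat brainstem RNA sequencing. Both encode basic helix-loop-helix transcription factors. They were taken from the authors' deposited gene tables, where both stand in the table for the ventral respiratory column after 24 h of CO2 and in no other. Each symbol was linked to its row of counts by equal mean abundance: OLIG1 to ENSCHIG00000020025 and OLIG2 to ENSCHIG00000007434. Each matched exactly 1 of the 17730 genes of that fit, with a difference of 0. The sequences of these genes are not analysed here.

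OLIG2 directs the formation of oligodendrocyte precursors in the embryonic hindbrain and spinal cord and stays on through the lineage. OLIG1 acts mainly later, in the maturation of oligodendrocytes and in the repair of myelin. Both factors bind E-box DNA as dimers, and their RNA in adult brain is found chiefly in oligodendrocytes and their precursors, the cells that make and renew myelin. In the RefSeq gene table of the goat assembly ARS1.2 they are next to each other on chromosome 1, with no gene listed between them.

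The study exposed 30 adult female goats, outbred, of several breeds and at least 2 years old, to room air or to air with 6% CO2. The 5 exposures, of 6 goats each, were 24 h of room air, 3 h of CO2, 24 h of CO2, 7 d of room air and 7 d of CO2. Brainstem tissue was taken from every goat at 3 distances rostral to the obex: 0 to 2 mm for the nucleus of the solitary tract (NTS), 2 to 4 mm for the ventral respiratory column (VRC) and 8 to 10 mm for the retrotrapezoid nucleus (RTN). That gave 15 groups of 6 libraries, 90 in all. Goats of the 3 h exposure have the 24 h room-air goats as their control. The 7 d goats, both CO2 and room air, form a second batch of RNA extraction and sequencing, so duration of 7 d and batch cannot be told apart.

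Sequencing depth averaged 18.9 M to 28.5 M counts in the groups, and the shallowest library, of 5.46 M, belongs to the VRC after 24 h of CO2. OLIG1 was counted 110 to 3257 times per library and OLIG2 33 to 789 times. With group means removed, their levels followed the library total only weakly (r = 0.031 for OLIG1 and 0.0296 for OLIG2 over 90 libraries, a description). On the second principal component of all libraries (11.7% of the variance), 5 first-batch NTS libraries scored highest: numbers 5 and 6 in room air, 5 and 6 at 3 h, and 5 at 24 h, which are different goats. NTS results of that batch are therefore given with and without them. Because each sample holds many cell types, fewer oligodendrocyte-lineage cells and less OLIG RNA per cell cannot be told apart. Of 25 myelin genes, 9 markers of oligodendrocyte precursors and 10 dimer partners and inhibitors, 0 could be linked to a row of counts, and of 20 regulators of the lineage only OLIG1 and OLIG2 could. The labelled sites and the lineage could therefore not be checked against their defining markers, apart from GRP and SHOX2 of 8 site genes.

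The values that chose both genes are those of the VRC at 24 h, and they are given as a description. The authors' fit is matched by one over all 90 libraries, so its scaling, gene filter and dispersions drew on every group, although the contrast compares these 2. In the VRC of goats kept 24 h in room air the 6 libraries held OLIG1 at 83.9, 92.9, 96.4, 97.1, 111.4 and 117.6 CPM (counts scaled to library size, with TMM factors over all libraries). After 24 h of CO2 they held 14.7, 20.1, 26.8, 27.4, 31.5 and 36.4 CPM. The highest library after CO2 stayed below the lowest in room air, so the groups did not overlap. The means were 99.9 ± 12.4 and 26.2 ± 7.8 CPM (SD, n = 6 each), a log2 change of -1.91 (SE 0.43), or 3.76-fold lower.

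OLIG2 held 12.2, 18.6, 23.0, 25.1, 25.2 and 28.5 CPM in these room-air libraries. After 24 h of CO2 it held 6.0, 6.7, 8.1, 8.9, 9.1 and 12.4 CPM. The groups overlapped by 1 library, since the lowest room-air value lay just under the highest value after CO2. The means were 22.1 ± 5.9 and 8.53 ± 2.26 CPM, a log2 change of -1.32 (SE 0.32), or 2.49-fold lower. Thus 1 of the 2 genes had groups that did not overlap, where 1.47% of 15424 genes did so in that direction, a share read with no inference because these libraries chose the genes.

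For this contrast 115 genes are listed in the authors' deposited table, which is 0.649% of the 17730 genes, and 95 of them (0.536%) as lower. Over all genes the edgeR quasi-likelihood fit called 0.817% at 24 h and 0.0130% at 3 h, shares from which nothing is read for OLIG1 and OLIG2. The authors' deposited table gives OLIG1 a log2 change of -1.93 (adjusted p = 0.00874) and OLIG2 one of -1.37 (adjusted p = 0.0448). OLIG2 is close to the end of that table: 4 entries have a higher adjusted p, up to 0.049.

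After 3 h of CO2 the VRC values spread widely. They are compared with the same room-air libraries, so they too are a description. OLIG1 held 11.0, 15.1, 22.4, 35.5, 62.3 and 107.3 CPM, and 5 of the 6 libraries were below the lowest in room air. The mean was 42.3 ± 36.8 CPM and the log2 change -1.23 (SE 0.41). Without number 3 of the 3 h group, the library of 107.3 CPM, the log2 change was -1.76. OLIG2 held 5.9, 6.1, 9.2, 11.4, 15.7 and 28.1 CPM, with a mean of 12.7 ± 8.3 CPM, a log2 change of -0.76 (SE 0.29), and -1.17 without number 3. The library highest in OLIG1 was also the highest in OLIG2.

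**Figure D1:**
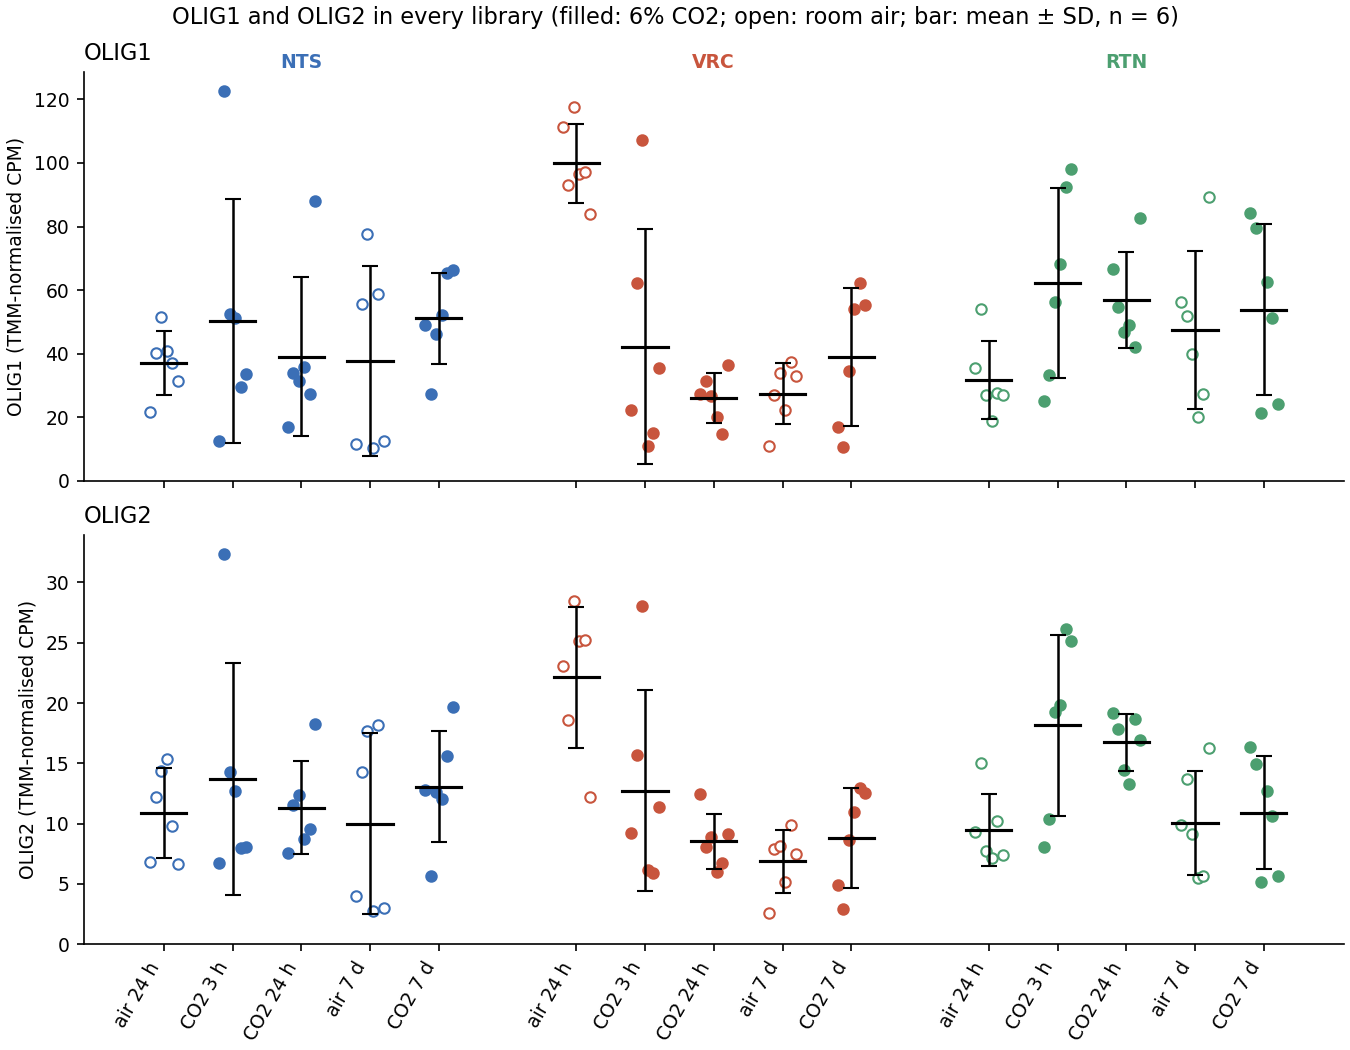
Level of OLIG1 (upper panel) and OLIG2 (lower panel) in TMM-normalised CPM on a linear axis, for each of 90 libraries, by site and exposure. Open circles are room air, filled circles are 6% CO2, and bars give the mean ± SD of 6 libraries. The 24 h room-air group of the VRC is the highest of the 15 for both genes, at 99.9 and 22.1 CPM.

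Across the 15 groups the 24 h room-air group of the VRC, which had a part in choosing the genes, had the highest mean of both genes. For OLIG1 the other 14 means ran from 26.2 CPM, in the VRC after 24 h of CO2, to 62.3 CPM, in the RTN after 3 h. The VRC room-air mean was 1.60-fold above the next, and 7 of the 84 other libraries reached its lowest library. The highest library of all, at 122.6 CPM, was in the NTS after 3 h. For OLIG2 the other means ran from 6.87 CPM, in the VRC after 7 d of room air, to 18.1 CPM, again in the RTN after 3 h. There the VRC room-air mean was 1.22-fold above the next, and 36 of 84 other libraries reached its lowest library.

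Ordered by mean, OLIG1 was highest in VRC room air of 24 h, followed by the RTN after 3 h (62.3 ± 29.9 CPM), 24 h (56.9 ± 15.2) and 7 d of CO2 (53.9 ± 26.8). Then came the NTS after 7 d (51.1 ± 14.3) and 3 h of CO2 (50.4 ± 38.4), the RTN after 7 d of room air (47.4 ± 24.8), the VRC after 3 h (42.3 ± 36.8), the NTS after 24 h (39.0 ± 25.0) and the VRC after 7 d of CO2 (39.0 ± 21.7). The order ended with room air of 7 d in the NTS (37.7 ± 29.8), of 24 h in the NTS (37.2 ± 10.0) and RTN (31.8 ± 12.2), of 7 d in the VRC (27.4 ± 9.7) and the VRC after 24 h of CO2 (26.2 ± 7.8). Only the first step in this order, from 99.9 to 62.3 CPM, exceeded the larger SD of the pair of groups it parts. That step belongs to the group that had a part in choosing the genes. The other 13 neighbouring pairs did not differ beyond their spread, and neighbours in a sorted order tend to lie close by construction. The order is therefore a description.

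For OLIG2 0 of 14 neighbouring pairs differed by more than the larger SD. After VRC room air of 24 h (22.1 ± 5.9 CPM) came the RTN after 3 h (18.1 ± 7.5) and 24 h of CO2 (16.7 ± 2.4). The NTS followed with 13.7 ± 9.6 after 3 h and 13.1 ± 4.6 after 7 d of CO2, then the VRC after 3 h (12.7 ± 8.3), the NTS after 24 h (11.3 ± 3.8) and the RTN after 7 d of CO2 (10.9 ± 4.7). Room air of 24 h gave 10.9 ± 3.7 (NTS) and 9.47 ± 2.98 (RTN), and that of 7 d gave 9.99 ± 7.51 (NTS) and 10.0 ± 4.3 (RTN). The VRC held the lowest means, with 8.83 ± 4.13 after 7 d of CO2, 8.53 ± 2.26 after 24 h of CO2 and 6.87 ± 2.60 after 7 d of room air.

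Room air did not give the same VRC level in both batches. OLIG1 averaged 99.9 ± 12.4 CPM in the VRC after 24 h of room air and 27.4 ± 9.7 CPM after 7 d, whose libraries held 10.9 to 37.4 CPM. OLIG2 averaged 22.1 ± 5.9 and 6.87 ± 2.60 CPM. For both genes these 2 groups did not overlap, with 7 d lower, as was the case for 1.72% of 17730 genes. The difference includes the group that chose the genes and was not tested. Time in room air and batch cannot be told apart here. In the first batch the mean after 24 h of CO2, 26.2 CPM for OLIG1, was near that of second-batch room air.

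The spread between goats was itself unlike between groups. The coefficient of variation of OLIG1 was lowest, at 12.4%, in the VRC after 24 h of room air and highest, at 87.2%, in the VRC after 3 h. It passed 50% in 6 of the 15 groups. For OLIG2 it ran from 14.1% in the RTN after 24 h of CO2 to 75.1% in the NTS after 7 d of room air. In that NTS group OLIG1 held 10.2, 11.6 and 12.4 CPM in numbers 4, 1 and 6 and 55.7, 58.8 and 77.5 CPM in numbers 2, 5 and 3, with no value between. OLIG2 was split over the same libraries, at 2.8 to 4.0 and 14.3 to 18.2 CPM.

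Within a goat, the VRC stood above the other sites in 24 h room air and mostly below them after 24 h of CO2. In all 6 goats of 24 h room air OLIG1 was higher in the VRC than in the NTS, by 1.45 ± 0.44 on the scale of log2(CPM + 0.5), and than in the RTN, by 1.70 ± 0.53 (SD). After 24 h of CO2 the VRC was below the RTN in all 6 goats, with a mean difference of -1.13 ± 0.28, and below the NTS in 5 of 6 (-0.44 ± 0.69). OLIG2 gave 1.01 ± 0.42 and 1.18 ± 0.59 against the NTS and RTN in room air, and -0.37 ± 0.55 and -0.96 ± 0.30 after 24 h of CO2. These differences hold the VRC libraries that chose the genes and are a description.

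**Figure D2:**
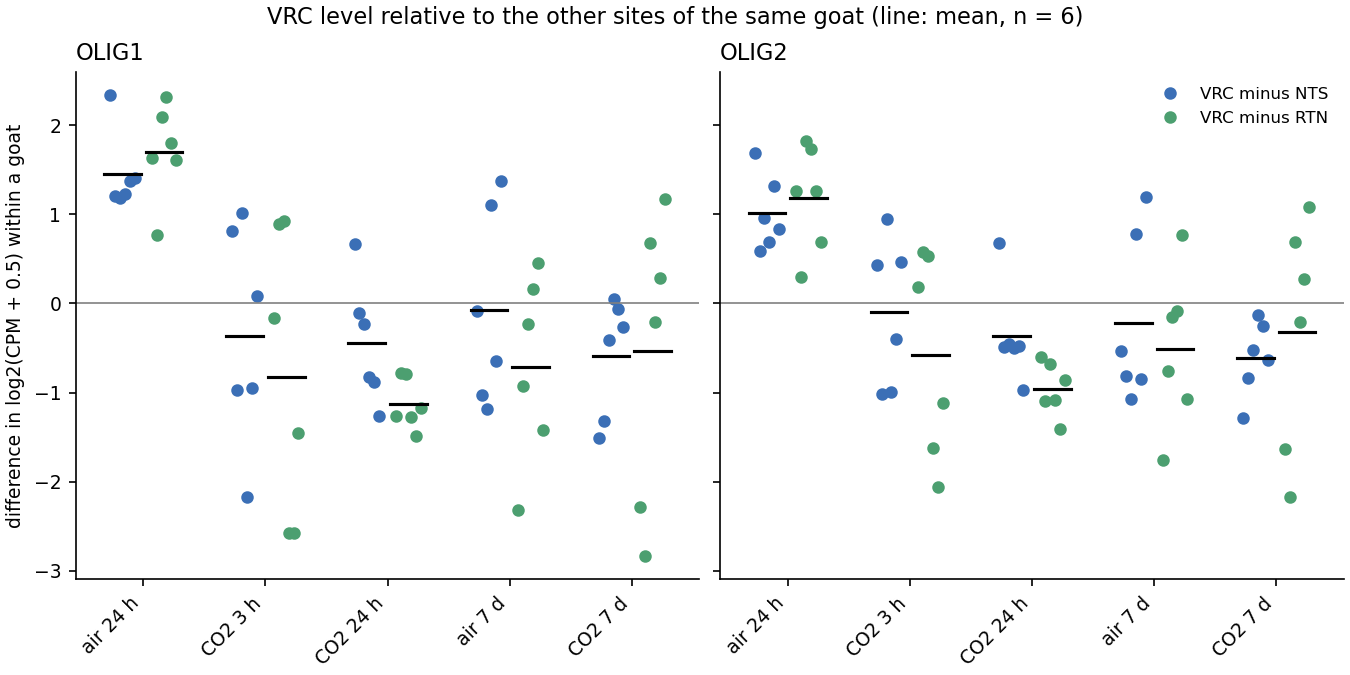
Difference in log2(CPM + 0.5) between the VRC and the NTS (blue) and between the VRC and the RTN (green) of the same goat, by exposure, for OLIG1 and OLIG2. Each point is 1 goat, lines are means of 6 goats, and the grey line marks no difference. All 6 goats of 24 h room air lie above 0 for both genes, and after 24 h of CO2 all 6 lie below 0 against the RTN.

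Whether the sites differ in room air was tested in the 7 d room-air goats, whose libraries are not in the contrast that chose the genes. The goat, taken from the replicate number, was a block. Neither gene differed between sites past an adjusted p of 0.05. OLIG1 in the VRC differed from the NTS by -0.28 on the log2 scale (95% interval -1.35 to 0.79; edgeR, adjusted p = 0.749) and from the RTN by -0.85 (-1.93 to 0.23; adjusted p = 0.308). The RTN differed from the NTS by 0.57 (-0.53 to 1.67; adjusted p = 0.491).

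For OLIG2 the values were -0.44 (-1.33 to 0.46; edgeR, adjusted p = 0.520), -0.61 (-1.53 to 0.31; 0.399) and 0.18 (-0.72 to 1.07; 0.813). In these goats OLIG1 was above the VRC level in the RTN in 4 of 6. So 0 of 2 genes passed in any of the 3 comparisons, by edgeR and by DESeq2, and at an unadjusted p under 0.05 the count was also 0. Over 15591 genes, 16.8% passed between VRC and NTS, 15.2% between RTN and NTS and 12.7% between VRC and RTN.

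In the RTN the means of both genes were higher after 3 h and 24 h of CO2 than in room air, and neither passed the test over all genes. The contrast that chose OLIG1 and OLIG2 holds no RTN library, although the goats are the same. OLIG1 held 19.0, 27.1, 27.2, 27.5, 35.6 and 54.2 CPM in 24 h room air, 25.2, 33.5, 56.4, 68.2, 92.3 and 98.2 CPM after 3 h and 42.0, 46.7, 49.1, 54.6, 66.5 and 82.7 CPM after 24 h of CO2. Of the 6 libraries 4 after 3 h and 3 after 24 h exceeded the highest in room air. The log2 differences were 0.97 at 3 h (SE 0.31, 95% interval 0.31 to 1.64; edgeR, unadjusted p = 0.00662, adjusted p = 0.527) and 0.85 at 24 h (SE 0.32, 0.18 to 1.51; unadjusted p = 0.0160, adjusted p = 0.671).

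OLIG2 in the RTN held 7.2, 7.4, 7.7, 9.3, 10.2 and 15.1 CPM in room air. It held 8.0, 10.4, 19.3, 19.9, 25.1 and 26.1 CPM after 3 h and 13.3, 14.5, 16.9, 17.8, 18.7 and 19.2 CPM after 24 h. At both times 4 of 6 libraries exceeded the highest in room air, which was number 2 for both genes. The log2 differences were 0.95 at 3 h (SE 0.25, 0.43 to 1.46; edgeR, unadjusted p = 0.00102, adjusted p = 0.346) and 0.84 at 24 h (SE 0.25, 0.31 to 1.36; unadjusted p = 0.00337, adjusted p = 0.532). Both times share the room-air libraries and are not independent.

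Of the 2 genes 0 passed in the RTN at 3 h, where 0.0129% of 15479 genes passed by edgeR, 17 genes by DESeq2 and 0 by voom. At 24 h 0 passed, as did 0% of all genes by edgeR, 9 genes by DESeq2 and 0 by voom. At an unadjusted p under 0.05 both genes passed at both times, among 1071 and 1001 of the 15479 genes. The 2 genes varied together and both times share the room-air libraries, so these are not separate results. The lowest adjusted p of OLIG2 at 3 h among the other settings was 0.0775, by DESeq2, and 0.0715 among the fits without a library. Some markers of other cells varied widely between these goats. PRPH, a neuronal filament gene, held 41.6 to 695.0 CPM in RTN room air, 28.1 to 949.5 CPM after 3 h and 27.4 to 422.6 CPM after 24 h, and TTR held 1.09 to 5.82, 0.962 to 1887.8 and 4.41 to 9.87 CPM. The microglial genes AIF1 and CD14 summed to 63.7 to 95.1 CPM in RTN room air, 53.4 to 91.1 CPM after 3 h and 69.5 to 98.97 CPM after 24 h of CO2, and the 2 linked blood genes to 8.31 to 13.4, 5.41 to 18.8 and 9.32 to 11.9 CPM. The 5 linked endothelial genes of 11 summed to 29.2 to 43.7 CPM in room air, 48.6 to 69.9 CPM after 3 h and 26.0 to 96.4 CPM after 24 h. The endothelial sum at 3 h was thus above room air in every library, without overlap, and the other ranges overlapped. After 24 h the mean of MEOX2 was lower than in room air, 1.68 against 2.10 CPM, and those of ACKR1, FOXQ1, NOS3 and THBD were higher. Only genes in the authors' deposited tables could be linked, and the RTN at 3 h is among the contrasts of those tables. The lack of overlap is therefore a description from which nothing is read. The part of these cells in the OLIG values was not tested.

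After 7 d the intervals of both genes in the RTN spanned 0. OLIG1 ran from 20.0 to 89.2 CPM in room air (median 45.8) and from 21.5 to 84.4 CPM in CO2 (median 56.8), so the groups overlapped over nearly their whole range. The log2 difference was 0.18 (95% interval -0.71 to 1.07; edgeR, adjusted p = 0.999) for OLIG1 and 0.13 (-0.59 to 0.84; adjusted p = 0.999) for OLIG2. Of the 2 genes 0 passed, and by edgeR 0% of 15326 genes did. Unadjusted, 499 genes had a p under 0.05, neither of these among them, and DESeq2 called 2 genes. The sign of the OLIG2 value turned, to -0.026 at the lowest, without any of 3 libraries: numbers 4 and 5 of room air and 1 of CO2.

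The VRC at 7 d is a comparison at the site of the large difference, in other goats and another batch. OLIG1 held 10.9, 22.5, 27.0, 33.1, 33.8 and 37.4 CPM in room air. After 7 d of CO2 it held 10.7, 16.9, 34.7, 54.1, 55.4 and 62.3 CPM. After CO2 3 libraries exceeded the highest in room air and 1 fell below the lowest. The log2 difference was 0.51 (SE 0.38, 95% interval -0.31 to 1.32; edgeR, adjusted p = 0.802). OLIG2 averaged 6.87 ± 2.60 and 8.83 ± 4.13 CPM, a log2 difference of 0.35 (SE 0.34, -0.37 to 1.08; adjusted p = 0.844).

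The lower ends of these intervals, -0.31 and -0.37, lie above the log2 changes of -1.91 and -1.32 at 24 h. Those 24 h changes chose the genes and may be larger for that reason, so nothing is read from this placing. Of the 2 genes 0 passed, and 0% of 15179 genes did so by edgeR. Unadjusted, 996 genes had a p under 0.05, neither of these among them, and DESeq2 called 2. The difference between the 24 h and 7 d effects was not tested, because the 24 h effect chose the genes.

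In the NTS neither gene passed at any time, and the intervals were wide. OLIG1 held 21.7 to 51.5 CPM in 24 h room air (median 38.7), 12.5 to 122.6 CPM after 3 h (median 42.4) and 17.1 to 88.2 CPM after 24 h of CO2 (median 32.8). The log2 differences were 0.45 at 3 h (95% interval -0.45 to 1.35; edgeR, adjusted p = 0.881) and 0.09 at 24 h (-0.81 to 0.99; adjusted p = 0.955). At 3 h the sign rested on number 2 of the CO2 group, at 122.6 CPM, without which the log2 difference was -0.05, and at 24 h on number 6 of the CO2 group, at 88.2 CPM, without which it was -0.35. Number 1 of room air also turned the sign at 24 h, to -0.03.

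OLIG2 in the NTS differed by 0.34 at 3 h (95% interval -0.37 to 1.06; edgeR, adjusted p = 0.889) and 0.07 at 24 h (-0.65 to 0.78; adjusted p = 0.958), and single libraries decided its sign: -0.14 at 3 h without number 2 of CO2, and at 24 h -0.15 without number 6 of CO2, -0.04 and -0.03 without room-air numbers 1 and 6. Without the 5 NTS libraries that scored highest on the second principal component the values were 0.64 and 0.12 for OLIG1 and 0.46 and -0.06 for OLIG2. Of the 2 genes 0 passed at either time in any setting. By edgeR 0% of 15605 genes passed at 3 h and 0% at 24 h. Unadjusted, 1053 and 1591 genes had a p under 0.05, neither of these among them. DESeq2 called 12 and 191 genes and voom 1 and 273.

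After 7 d the NTS of CO2 goats held 27.4 to 66.4 CPM of OLIG1 (median 50.6), against the split room-air group of 10.2 to 77.5 CPM (median 34.1). The log2 difference was 0.44 (95% interval -0.62 to 1.49; edgeR, adjusted p = 0.820), and 1.09 by voom, which weights libraries (adjusted p = 0.388). For OLIG2 it was 0.38 (-0.62 to 1.37; edgeR, adjusted p = 0.836), and 0.86 by voom (adjusted p = 0.509). Leaving out 1 library gave 0.24 to 0.78 for OLIG1 and 0.18 to 0.64 for OLIG2. Of the 2 genes 0 passed, against 0.00653% of 15311 genes.

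**Figure D3:**
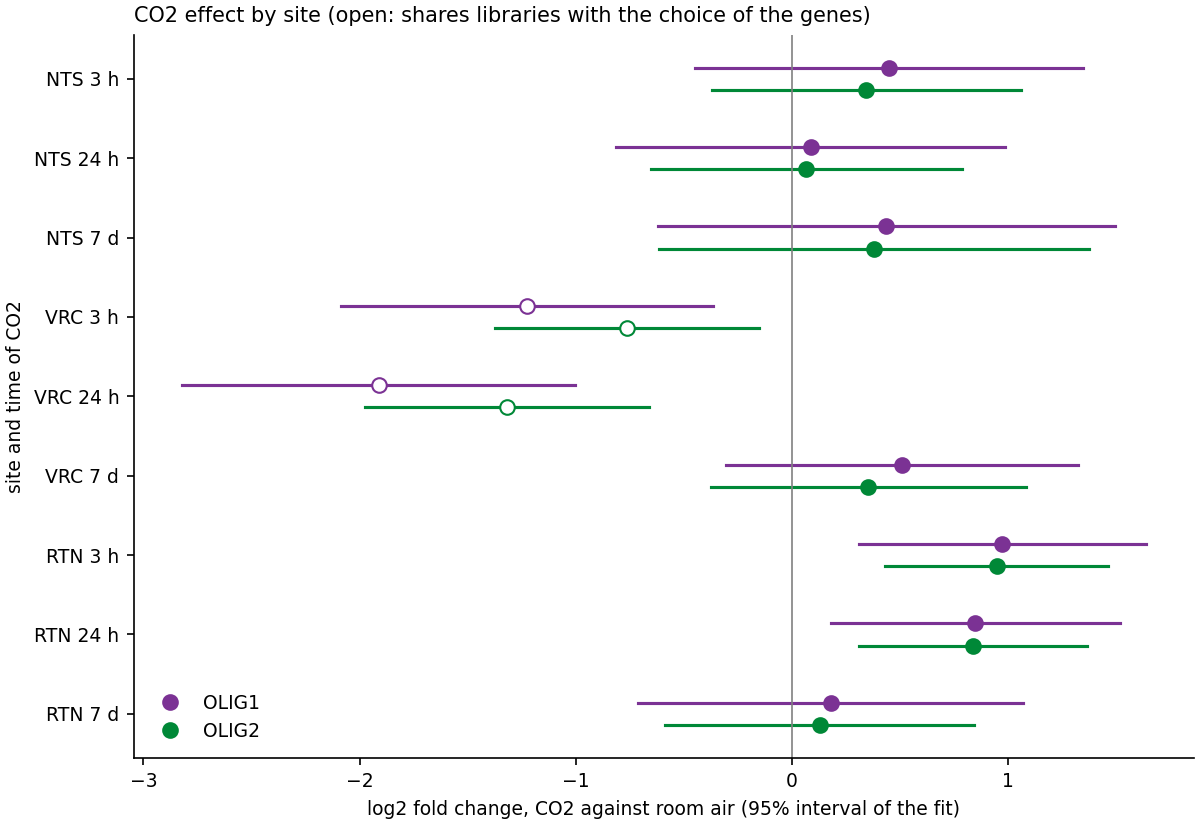
Log2 fold change of CO2 against room air for OLIG1 (purple) and OLIG2 (green) at each site and time, with the 95% interval of the fit, on a log2 axis. Open circles mark the VRC at 3 h and 24 h, whose room-air libraries had a part in choosing the genes. These values lie below 0, from -0.76 to -1.91, and the tested ones lie above it, from 0.07 to 0.97.

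OLIG1 and OLIG2 varied together from library to library. With each group's mean removed, their levels correlated across the 30 goats at r = 0.934 in the NTS, 0.926 in the VRC and 0.939 in the RTN (Spearman's rho 0.943, 0.887 and 0.910). In the NTS and the RTN the permutation p within groups was 1e-05, the smallest that 100000 resamples can give, and the same value adjusted over the sites. The VRC value holds the libraries that chose the genes and is a description. Without the 2 goats farthest from the median of OLIG1, r was 0.937, 0.888 and 0.919. In the first batch r was 0.888, 0.876 and 0.892 (n = 18 each) and in the second 0.980, 0.982 and 0.975 (n = 12 each). Both genes are read from the same library, so they share its RNA, depth and preparation. They were also chosen together, and the sites share their goats. Most genes listed with them also correlated with each at over 0.5 outside the first-batch VRC, so the p is not read as particular to this pair.

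**Figure D4:**
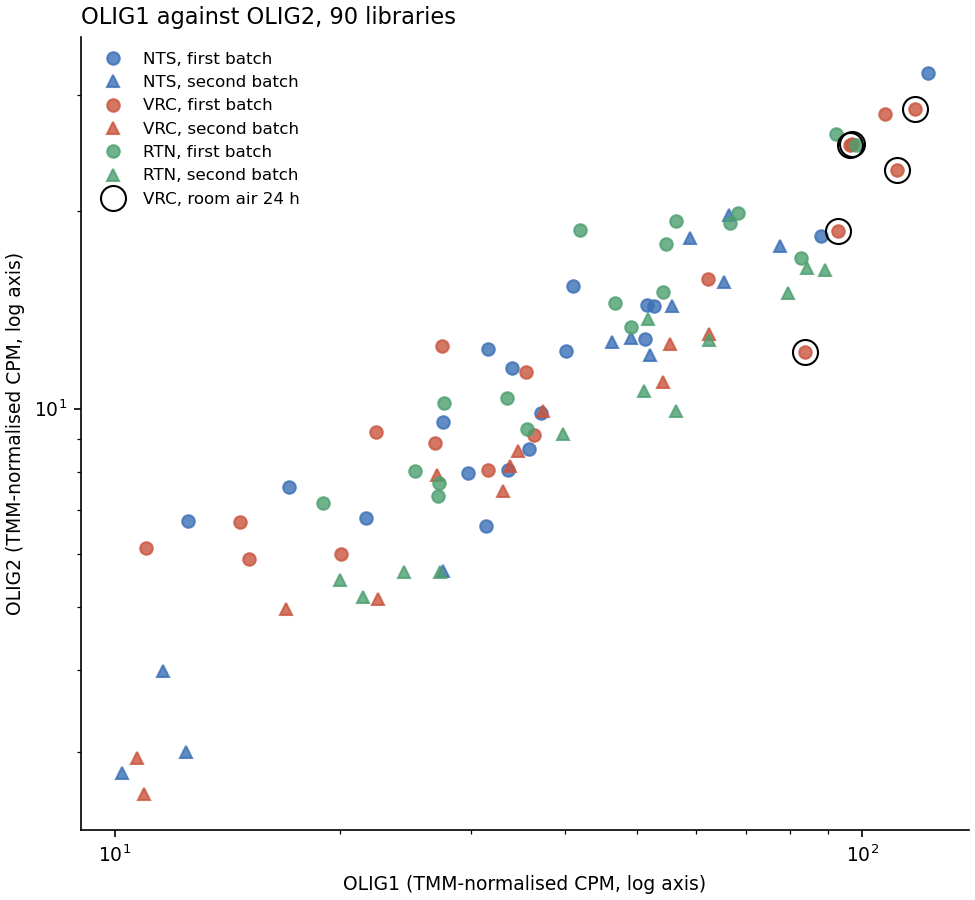
OLIG2 against OLIG1 in TMM-normalised CPM, both on log axes, for 90 libraries coloured by site, with circles for the first batch and triangles for the second. Black rings mark the 6 VRC libraries of 24 h room air, at 83.9 to 117.6 CPM of OLIG1. The libraries of all sites lie along a common band, with the second batch toward its lower edge.

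The ratio of OLIG1 to OLIG2 counts shows where they moved unequally. It depends on the lengths of both transcripts, so only its changes are read. The mean log2 ratio was 2.22 ± 0.32 (SD, n = 6) in VRC room air of 24 h, 1.51 ± 0.43 after 3 h and 1.60 ± 0.39 after 24 h of CO2, a description in which OLIG1 had the larger difference. The other first-batch groups had means of 1.65 to 1.80 and the second-batch groups of 1.88 to 2.25. At 7 d CO2 and room air differed by 0.13 in the NTS, 0.05 in the VRC and 0.06 in the RTN (exact 2-sided permutation test, p = 0.307, 0.665 and 0.636; adjusted p = 0.665 each; smallest possible p 0.00216).

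**Figure D5:**
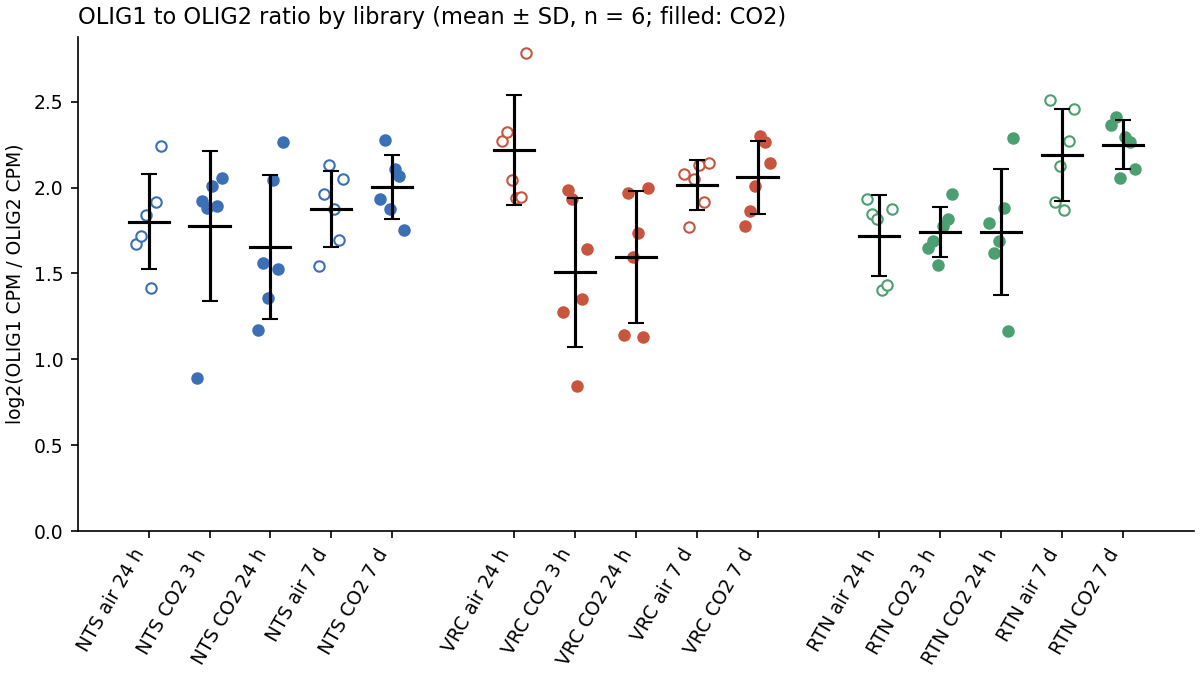
Log2 ratio of OLIG1 CPM to OLIG2 CPM in each library by site and exposure, from 0 on a log2 scale, with the mean ± SD of 6 libraries; filled circles are CO2. The VRC has 2.22 in 24 h room air and 1.60 after 24 h of CO2, and both 7 d groups of the RTN lie at 2.19 and 2.25.

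The same goat's level at another site was only partly shared. With group means removed, OLIG1 in the NTS and VRC of a goat correlated at r = 0.469 (rho 0.564) over 30 goats, against -0.057 for NTS and RTN and -0.230 for VRC and RTN. OLIG2 gave 0.553, -0.219 and -0.22. These are descriptions across sites that share a goat and a batch.

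The genes whose levels most resembled those of OLIG1 and OLIG2 were looked for among the 238 genes with a linked symbol, all of which the authors had chosen on these libraries. Over 90 libraries with group means removed, the 5 most like OLIG1 included OLIG2 (r = 0.932), DACT3, an inhibitor of Wnt signalling (0.922), SAPCD2, a protein of spindle orientation (0.922), and ANKRD9 (0.903). By this measure OLIG2 was the most like OLIG1 of all 17729 other genes, named or not. For OLIG2 they included SAPCD2 (0.932), OLIG1 (0.932), GPR62, an orphan receptor of myelinating oligodendrocytes (0.890) and DACT3 (0.885). Over the 15 group means, OLIG1 was closest to DACT3 (0.966), GNA12 (0.951), LEMD2 (0.950), NRG2 (0.949) and INTS15 (0.948). OLIG2 was closest to ZDHHC2 (0.963), TMEM229A (0.962), EGLN1 (0.959), RAB12 (0.951) and NR1D2 (0.948). By group means OLIG1 and OLIG2 correlated at 0.90, which put OLIG2 at place 30 of 17729 for OLIG1 and OLIG1 at place 26 for OLIG2.

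The genes named here besides OLIG1 and OLIG2 are all in the authors' deposited table that chose them, and all but ANKRD9 had their highest group mean in VRC room air of 24 h. GPR62 averaged 61.3 CPM there and 20.1 to 30.3 CPM in the other 14 groups. SAPCD2 averaged 58.7 CPM there and 19.1 to 40.3 CPM elsewhere. The mean of ANKRD9 there, 23.2 CPM, was its second highest. Of all 17730 genes 8.13% had their highest mean in that group, and in that group 0.107% stood as far above the next group as OLIG1 did and 0.829% as far as OLIG2 did. Nothing is read from these shares, since that group chose the genes.

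The likeness reached most of the genes listed with OLIG1 and OLIG2. Beside these, 85 linked genes are given as lower in the same authors' deposited table, and their residual levels correlated with OLIG1 at a median r of 0.724. Of the 85 genes 76, or 89.4%, had r above 0.5, against 2.11% of the 142 linked genes listed only elsewhere and 2.52% of all genes. For OLIG2 the median was 0.706 and the share 85.9%. In the 72 libraries outside the VRC of the first batch, which are not in the contrast of that table though in the fit behind it, the medians were 0.731 for OLIG1 and 0.710 for OLIG2, the shares above 0.5 were 87.1% and 89.4%, and OLIG1 and OLIG2 correlated at 0.944. The points share library, depth, batch and the base composition of the libraries, none of which was tested for its part.

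In the comparisons outside the VRC of the first batch these 85 genes leaned the way OLIG1 and OLIG2 did, as a count with no test. In the RTN 79 of 85 had a log2 difference above 0 at 3 h and 78 at 24 h, with medians of 0.47 and 0.46, where 49.1% and 49.7% of all genes were above 0. In the NTS 79 were above 0 at 3 h (median 0.37) and 80 at 7 d (median 0.39), against 53.3% and 47.5% of all genes. The NTS at 24 h had 56 (median 0.05), the VRC at 7 d 58 of 84 (median 0.10) and the RTN at 7 d 75 (median 0.19), against 52.6%, 50.6% and 48.9% of all genes. None of the 85 passed an adjusted p of 0.05 by edgeR in these 7 comparisons. The 3 h and 24 h values of a site share its room-air libraries. The 85 genes were listed together with OLIG1 and OLIG2, and most varied with them from library to library. They are therefore not independent observations, and nothing is read from their number for OLIG1 and OLIG2.

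Other cell types could be followed through few genes. Of 13 linked markers of neurons, microglia, endothelium, choroid plexus, blood and sites, 12 had residual correlations with OLIG1 between -0.245 and 0.091. FOXQ1, an endothelial transcription factor that the authors' deposited table also lists there, had r = 0.675. In the VRC the 5 linked endothelial genes of 11 summed to 25.8 to 43.3 CPM in 24 h room air and 29.5 to 117.8 CPM after 24 h of CO2. Their means did not move alike. ACKR1 went from 7.20 to 22.2 CPM, NOS3 from 20.3 to 23.0 and THBD from 3.91 to 5.60. FOXQ1 went from 1.66 to 0.458 CPM and MEOX2 from 2.52 to 1.63. TTR, a choroid plexus gene, held 0.482 to 2.58 CPM and 1.39 to 164.3 CPM, and AIF1 and CD14 together 51.6 to 80.1 and 54.7 to 77.7 CPM. PRPH, the 1 linked neuronal gene of 12, held 3.75 to 19.5 and 2.01 to 29.6 CPM, and the 2 linked blood genes of 5 summed to 6.96 to 17.3 and 10.5 to 15.5 CPM. The part of these cell types in the OLIG values was not tested.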

How the data were processed

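Bulk RNA was measured in 90 libraries; kits were SMART-Seq v4 and Nextera XT, read as 100-bp pairs. Tools named, per the submitters' processing notes, are edgeR 4.6, featureCounts 2.0.6, STAR 2.7.10b and fastp 0.24.0; which genome build, annotation and strand setting they ran with is not given. The kits do not mark strand, so antisense reads cannot be separated. The deposited counts are raw whole numbers per Ensembl gene, and 0 columns were left out. The authors' deposited gene tables hold log2 fold changes and log2 mean abundances, a likelihood ratio score, and p-values per the file headers.

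Symbols were linked by mean abundance in a fit over all libraries (minimum count 5, tolerance 1e-06). CO2 and room air were compared with edgeR 4.0.16 in R 4.3.3 (TMM, filterByExpr, glmQLFit with robust=TRUE, quasi-likelihood F test, Benjamini-Hochberg adjustment over all genes, threshold 0.05) on the libraries of a site and batch. Sites were compared in 7 d room air with the goat as a block. The SE is the log2 change divided by the root of the F statistic. The goats of different exposures are different animals. Number i was taken as the same goat at all sites: of 90 pairs of libraries 85 correlated best, in residuals, with their own number. In 7 d room air, where the goat is the block, this held for 6 of 6 pairs of NTS and VRC. It held there for 4 of 6 pairs of NTS and RTN (lowest r 0.053) and 5 of 6 of VRC and RTN (lowest r -0.085). The deposited VRC 24 h table chose both genes, so VRC comparisons of the first batch carry no test. The members and lists were chosen with earlier results of these data known. Named in addition are the 5 linked genes most like each member, by residuals and by group means of log2(CPM + 0.5), and linked members of the lists, apart from 1 gene that is not reported here. Code was tested on simulated data. Alternatives were DESeq2 1.42.0, limma 3.58.1 voom with quality weights, RLE factors, other filters, other libraries, the replicate block and leaving out each library. The 5 NTS libraries were left out in a fit chosen after seeing the data.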

Additional observations from a re-analysis of the deposited data

Results flagged for a closer look

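In the NTS after 3 h of CO2, number 2 lay far above the other 5 goats in both genes, at 122.6 CPM of OLIG1 and 32.4 CPM of OLIG2. In the same group the log2 ratio of OLIG1 to OLIG2 of number 1 lay far below the others, at 0.89. In the NTS after 24 h of CO2, number 6 lay far above the others in OLIG1, at 88.2 CPM. In all, 45 sets of 6 values were looked at in this way, and chance flags about 1 set in 20.

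At 24 h the difference between CO2 and room-air goats had opposite signs in the VRC and in the RTN. The goats of the 2 exposures are different animals, so no goat has an effect of its own. All 6 VRC libraries after CO2 lay below the room-air mean of that site and all 6 RTN libraries above theirs, for OLIG1 and for OLIG2. In all, 18 pairs of site effects were looked at in this way. The share of all genes that meet this rule was not counted, so nothing is read from it. In the RTN at 24 h neither gene passed (edgeR, adjusted p = 0.671 for OLIG1 and 0.532 for OLIG2). The VRC effect was lower than the RTN effect by a log2 difference of -2.76 for OLIG1 and -2.15 for OLIG2. The difference was not tested, because the VRC effect chose the genes.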

How the results depend on the processing

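Of the 481 values of OLIG1, OLIG2 and their ratio recomputed under other settings, 462 kept their direction and their side of the threshold, or for the VRC at 3 h and 24 h stayed within 1 SD between replicates. The other 19 turned sign, and none of the 19 passed a threshold. No setting brought either gene past 0.05 in a tested comparison. With the replicate number as a block OLIG1 in the NTS at 24 h was -0.012, and the block changed no call of either gene. Same-numbered goats of different exposures correlated over 0.1 in all 6 pairs in the NTS at 3 h and in none of the other 8 comparisons, where the lowest pair was 0.054 or less; these are different goats. In the NTS at 3 h the block gave 0.24 for OLIG1 and 0.23 for OLIG2, against 0.45 and 0.34. Between sites, no replicate block gave OLIG2 -0.0023 for RTN with NTS. In the NTS at 24 h OLIG2 was -0.019 by voom and -0.063 with 5 NTS libraries left out. Values that kept their sign but moved by over 1.5 times were those of the NTS at 3 h by voom (0.29 and 0.15 for OLIG1 and OLIG2), of OLIG1 in the NTS at 24 h by voom (0.03), of the NTS at 7 d by voom (1.09 and 0.86) and with the block (0.81 and 0.59), and of the RTN at 7 d by voom (0.31 and 0.23). Between sites they were OLIG1 with no block (-0.45 for VRC with NTS, 0.33 for RTN with NTS) and OLIG2 for RTN with NTS by DESeq2 (0.32). For the ratio they were the NTS (0.20) and the VRC (0.072) at 7 d with 1 CPM added.

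Leaving out 1 library at a time, OLIG1 in the NTS ranged from -0.049 to 0.65 at 3 h and from -0.35 to 0.24 at 24 h, and OLIG2 from -0.14 to 0.48 and from -0.15 to 0.17. OLIG2 ranged from -0.026 to 0.32 in the RTN at 7 d and from -0.23 to 0.57 for RTN with NTS. The ratio at 7 d ranged from -0.0032 to 0.10 in the VRC and from -0.0048 to 0.12 in the RTN. In the NTS at 7 d OLIG1 ranged from 0.24 to 0.78 and OLIG2 from 0.18 to 0.64, in the VRC at 7 d from 0.33 to 0.70 and from 0.19 to 0.53, and OLIG1 in the RTN at 7 d from 0.0074 to 0.46. Between sites OLIG1 ranged from -0.53 to -0.012 for VRC with NTS, from 0.15 to 0.94 for RTN with NTS and from -1.07 to -0.50 for VRC with RTN, and OLIG2 from -0.67 to -0.24 for VRC with NTS and from -0.86 to -0.38 for VRC with RTN. In the VRC at 24 h OLIG1 ranged from -2.05 to -1.77 and OLIG2 from -1.46 to -1.23.

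Counts of genes past 0.05 moved with the tool. DESeq2 gave 12, 191 and 75 genes in the NTS at 3 h, 24 h and 7 d (0, 0 and 1 by edgeR), 121, 274 and 2 in the VRC (2, 126 and 0) and 17, 9 and 2 in the RTN (2, 0 and 0). Voom gave 1, 273 and 2 genes in the NTS, 44 in the VRC at 3 h and 0 in the RTN at 3 h. Fits over all 90 libraries gave 9, 206 and 29 genes in the NTS by the quasi-likelihood test and 11, 250 and 34 by the likelihood ratio test. The NTS without its 5 libraries had 5 genes at 3 h and 148 at 24 h, and the VRC at 24 h with its compared groups alone 263. With the replicate block the NTS had 3, 13 and 0 genes and the VRC at 3 h 95. Without 1 library the VRC had 18 to 126 genes at 24 h (18 without CO2 number 1) and 2 to 180 at 3 h (180 without CO2 number 3), and the NTS at 24 h 0 to 114. Sites in room air of 7 d gave 1359, 1289 and 704 genes with no replicate block, against 2625, 2371 and 1979. Counts per library went down to 110 for OLIG1 and 33 for OLIG2.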
